A study of Mus musculus with 6 samples.

Results

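Rab proteins are small GTPases that direct membrane traffic, and the expression of their genes was compared between mouse dorsal root ganglion (DRG) and spinal cord (SC). The members were all probe sets whose platform annotation names exactly 1 gene with a symbol made of Rab, a number and at most 1 letter from a to d. This rule uses no measured value and took 132 of the 45101 probe sets of the array. They belong to 59 genes, of 18192 genes tested. All 59 RefSeq mouse genes with such a symbol (assembly GRCm38.p6) were on the array, 21 with 1 probe set and 38 with several. Each tissue was represented by 3 arrays. Total RNA for an array came from a pool of 4 male C57BL/6J mice aged 3 months, and the label was biotin. The RNA was taken from left and right lumbar ganglia or from lumbar cord, and the series describes the pools as independent. No mouse carried a transgene or received a treatment as far as the labels say, and pooling hides the spread between single mice.

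A Rab protein switches between a GDP-bound form, kept soluble by GDP dissociation inhibitors, and a GTP-bound form that sits on a membrane and recruits effectors such as tethers, motors and sorting proteins. Guanine nucleotide exchange factors load the GTP and GTPase-activating proteins end the cycle. Each Rab marks a step of transport: Rab1, Rab2 and Rab6 work between endoplasmic reticulum (ER) and Golgi, Rab3 and Rab27 at secretory vesicles, Rab5 and Rab4 at early endosomes, Rab11 at recycling endosomes and Rab7 at late endosomes. Sensory neurons of the DRG send long axons to skin and cord, and Rab5 and Rab7 endosomes carry neurotrophin receptors back along such axons, while Rab11 and Rab27 vesicles carry receptors outward. Inherited forms of RAB7 disease are sensory neuropathies.

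Signals below are in arbitrary units after the authors' array scaling. The difference between tissues is given as log2(signal + 16), DRG minus SC, with its standard error (SE), from limma with n = 3 arrays per tissue. A gene is called when its Benjamini-Hochberg adjusted p over all 18192 genes is under 0.05. A fold is the ratio of the geometric means of the signals. A background level was set on each array at the 95th percentile of 44 probe sets of 33 genes that belong to other organs, such as liver, pancreas and testis, and lay between 93.2 and 129.6. Where no array of a tissue exceeded it, the fold is a bound against this level. In these whole tissues, fewer cells of a type and less RNA per cell cannot be told apart.

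The direction of many small differences depended on how the arrays were put on a common scale, because the authors' array factors were 84.5 to 89.5 in DRG and 110.5 to 112.6 in SC. Signals before these factors were not unscaled, since their trimmed mean (extremes left out) was 247.1 to 247.3 on every array. Their medians lay near the factors, at 82.6 to 87.5 in DRG and 108.3 to 109.9 in SC. Under the deposited scaling the median gene stood at 0.18, after quantile normalization at 0.04 and before the array factors at -0.10. Each Rab gene is therefore given under these 3 scalings, and the text leads with genes called in the same direction under all 3. Arrays of a tissue correlated at 0.973 to 0.977 over genes and arrays of different tissues at 0.887 to 0.892. The tissue labels were borne out by their markers: all 8 sensory neuron markers were called higher in DRG, and all 5 spinal interneuron, 7 oligodendrocyte and 7 astrocyte markers were called higher in SC. Among sensory neuron markers 1 of 8 stood above the level on any SC array, and among spinal interneuron markers 0 of 5 did on any DRG array.

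Of the 59 Rab genes, 30 were called higher in DRG under the deposited scaling, a share of 50.8% against 32.7% of all genes. A further 4 passed the test toward SC, 6.78% against 10.2% of all genes, and 25 were not called. After quantile normalization 17 were called higher in DRG (28.8% against 21.4% of all genes) and 11 in SC (18.6% against 16.8%), and before the array factors 20 (33.9% against 19.7%) and 12 (20.3% against 20.5%). Under all 3 scalings, 16 Rab genes were higher in DRG, 27.1% against 17.8% of all genes, and 4 were higher in SC, 6.78% against 10.1%. With all probe sets of a gene averaged, the 16 became 10. Rab genes are brightly detected, and 47 of the 59 lie above the median signal of all genes. Among those 47 the share higher in DRG under all 3 scalings was 31.9%, near the 29.8% of all genes above the median, and the share higher in SC was 6.38% against 12.8%. The count in SC fell to 2 without DRG replicate 1 or without SC replicate 1, where Rab23 and Rab42 lost their call. Against all genes above the median signal, the share higher in DRG did not set the family apart. Genes were not matched more closely by signal, and the account below is of single members.

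The sizes were uneven. A called log2 difference of at least 1 was found for 9 Rab genes higher in DRG, against 11.6% of all genes, and for 2 higher in SC, against 4.84% of all genes. Under the deposited scaling all 3 DRG arrays lay above all 3 SC arrays for 35 of the 59 Rab genes, where 37.9% of all genes had that order. Whether arrays overlap, here and for single genes below, was read under that scaling alone. The count was not set against genes of like signal. The reverse order held for 8 Rab genes, against 13.8% of all genes, and in 16 the arrays overlapped. The median Rab difference was 0.38 under the deposited scaling, 0.01 after quantile normalization and 0.01 before the array factors.

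**Figure D1:**
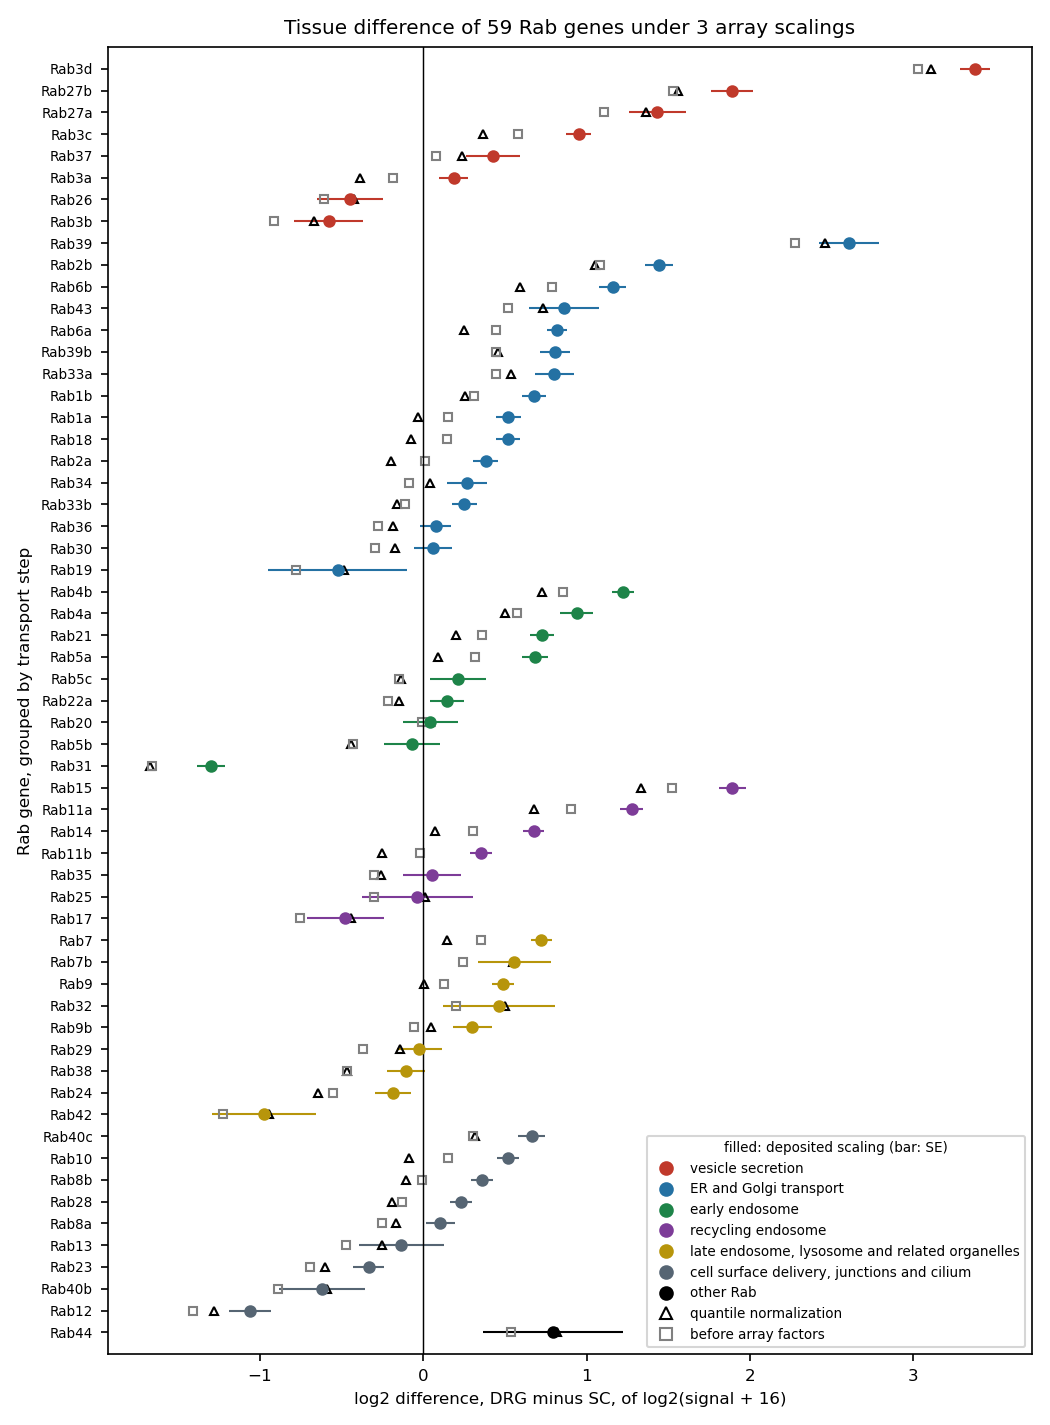
Log2 difference, DRG minus SC, of log2(signal + 16) for each of the 59 Rab genes, grouped by transport step; filled points are the deposited scaling with bars of 1 SE, triangles quantile normalization and squares the signals before the array factors. Rab3d at 3.38 and Rab39 at 2.60 stand farthest to the right and Rab31 at -1.30 farthest to the left, while many genes near 0 change side between the scalings.

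Promoter sequences are given for the members at both ends of that range, so that the sequence upstream of genes that differed most can be read beside their values. RefSeq windows were matched for 48 of the 59 Rab genes, as 60 windows of 250 bases before the start site. Each run is printed 5′ to 3′ on the gene's own strand in assembly GRCm38.p6 and ends at the base before the start site. Capitals mark matches to the GC box GGGCGG or the CCAAT box CCAAT on either strand.
Rab3d, chr9:21918184-21918433, minus strand: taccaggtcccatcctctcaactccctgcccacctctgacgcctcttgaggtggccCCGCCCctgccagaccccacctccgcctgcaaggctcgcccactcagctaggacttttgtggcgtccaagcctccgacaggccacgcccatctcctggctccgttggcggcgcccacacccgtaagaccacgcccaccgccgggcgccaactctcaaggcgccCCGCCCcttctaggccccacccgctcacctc
Rab39, chr9:53706233-53706482, minus strand: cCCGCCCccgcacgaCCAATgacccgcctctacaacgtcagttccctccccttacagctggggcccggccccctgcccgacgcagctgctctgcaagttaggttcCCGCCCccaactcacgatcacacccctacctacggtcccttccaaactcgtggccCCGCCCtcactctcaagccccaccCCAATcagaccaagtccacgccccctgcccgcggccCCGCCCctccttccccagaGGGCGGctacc
Rab31, chr17:65772753-65773002, minus strand: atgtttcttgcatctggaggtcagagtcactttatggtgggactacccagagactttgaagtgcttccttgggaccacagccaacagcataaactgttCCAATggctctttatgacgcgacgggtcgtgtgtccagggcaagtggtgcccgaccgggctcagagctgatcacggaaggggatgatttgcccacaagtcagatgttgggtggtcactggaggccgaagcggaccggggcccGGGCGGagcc
Rab12, chr17:66519671-66519920, minus strand: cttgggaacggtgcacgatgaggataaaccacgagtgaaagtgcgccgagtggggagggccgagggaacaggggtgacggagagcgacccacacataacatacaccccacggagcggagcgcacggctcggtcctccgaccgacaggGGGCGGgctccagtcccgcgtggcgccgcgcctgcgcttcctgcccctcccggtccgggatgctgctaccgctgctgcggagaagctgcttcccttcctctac
The GC box was found 2 times before Rab3d, 5 times before Rab39 and 1 time each before Rab31 and Rab12. The CCAAT box was found 2 times before Rab39 and 1 time before Rab31. All 4 windows are rich in G and C, at 69.2% for Rab3d, 68.8% for Rab39, 57.6% for Rab31 and 67.6% for Rab12, where the median of all 32851 windows was 52.4% and that of the 60 Rab windows 60.2%. A GC box was present in 66.7% of Rab windows and 32.7% of all windows, and a CCAAT box in 40% and 33.8%. The E-box CACGTG was in 8.33% of Rab windows against 6.02% of all, the cyclic AMP response element TGACGTCA in 3.33% against 1.55% and the TATA box TATAAA in 6.67% against 12.4%, all on both strands. None of these motifs overlapped another in the printed windows. Of the genes called under all 3 scalings, the GC box was in 12 of the 18 windows of those higher in DRG and in 5 of the 5 windows of those higher in SC, so it marked members of both directions.

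The secretory Rabs held the largest difference of the family. Of 8 genes, Rab3d, Rab27b, Rab27a and Rab3c were called higher in DRG under all 3 scalings, and none was called higher in SC under all 3. After quantile normalization 2 were called higher in SC, and before the array factors also 2. The median of the 8 was 0.69 under the deposited scaling, and 0.30 and 0.33 under the other scalings. Rab3d, best known from secretory granules of exocrine cells, had signals of 1229, 1302 and 1297 in DRG, against 99.2, 112 and 114 in SC. The SC values were under the background level on 1 array and just over it on the other 2, so the gene was bright in ganglion and barely measured in cord. The difference was 3.38 ± 0.09 (SE), an 11.8-fold ratio with a limma adjusted p of 8.11e-09, and 3.10 and 3.03 under quantile normalization and before the array factors. Its 4 probe sets were all called higher in DRG, at 1.17, 3.08, 3.38 and 4.30.

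Rab27b and Rab27a dock secretory vesicles at the plasma membrane, and Rab27a also moves melanosomes in pigment cells. Rab27b signals were 987, 990.3 and 824 in DRG, against 255, 199 and 271 in SC. All DRG arrays were more than 3 times the highest SC array, and the difference was 1.89 ± 0.13 (SE), 3.88-fold, limma adjusted p 2.16e-06. Rab27a signals were 248, 199 and 210.2 in DRG against 63.6, 76.1 and 73 in SC, where every array lay under the background level. The difference was 1.43 ± 0.17 (SE), at least 2.09-fold, limma adjusted p 0.000101. The pigment cell marker Tyrp1, an enzyme of melanin synthesis, moved the same way, with signals of 315, 316 and 348 in DRG and 105, 60.7 and 65.1 in SC. Over the whole list of 6 pigment markers, 2 were called higher in DRG and 1 in SC, 2 stood above the level on any array in each tissue, and their summed signal was 639 to 668 in DRG and 401 to 455 in SC. The 2 became 1 before the array factors and without DRG replicate 2, SC replicate 1 or SC replicate 2, and the 1 became 2 before the array factors and 0 without SC replicate 2. Their part in the Rab27a difference was not tested.

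Rab3c, a synaptic vesicle Rab, had signals of 2581, 2238 and 2665 in DRG and 1325, 1255 and 1258 in SC. Its difference was 0.95 ± 0.08 (SE), 1.95-fold, limma adjusted p 7.66e-06, and shrank to 0.37 after quantile normalization. Rab3a, the most studied synaptic vesicle Rab, read 4136, 4263 and 4314 in DRG and 4012, 3985 and 3235 in SC. Its groups did not overlap, yet the difference of 0.18 ± 0.09 (SE) was not called (limma adjusted p 0.138), and after quantile normalization the gene was called higher in SC at -0.39. Rab3b, at 99 to 159 in DRG and 152 to 217 in SC, had a difference of -0.58 ± 0.21 (SE) that was not called under the deposited scaling but was called higher in SC under the other two. Rab37 and Rab26, both linked to secretory granules, had differences of 0.43 and -0.45 that were not called, and Rab26 was under the level on every array.

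Beside these secretory Rabs, 8 of the 11 markers shared by neurons of both tissues were called higher in DRG and 1 higher in SC, with all 11 above the level in both tissues. Their summed signal was 73546 to 77089 in DRG and 43694 to 48163 in SC, and their median difference was 0.85. After quantile normalization the calls were 6 toward DRG and 4 toward SC (median 0.25), and before the array factors 6 and 3 (median 0.48). Schwann cell markers (4 of 5 called higher in DRG, summed signal 9172 to 9688 against 1508 to 1737) and matrix and fibroblast markers (5 of 6, 14346 to 15702 against 2557 to 2836) also stood higher in DRG. Within the Schwann cell sum, Ngfr alone read 5240, 5755 and 5593 in DRG and 81.4, 102 and 83.9 in SC. Under each of the other scalings, 1 Schwann cell marker and 1 matrix and fibroblast marker were called higher in SC. The part of these lists in the Rab differences was not tested.

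**Figure D2:**
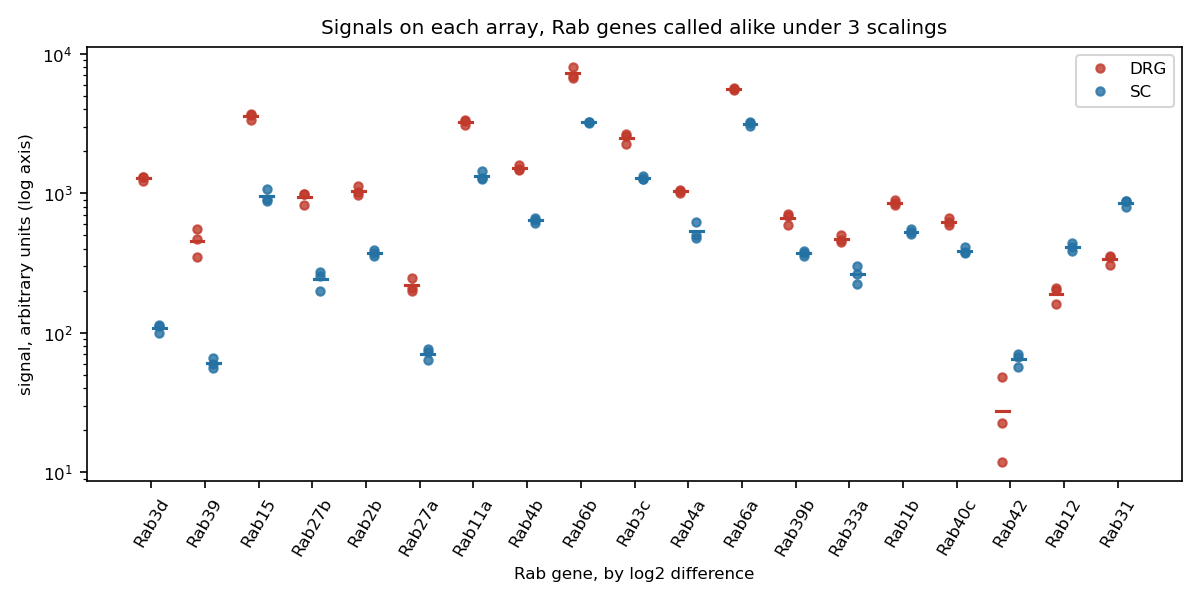
Signal on each of the 6 arrays (log axis, arbitrary units) for the 19 Rab genes called in the same direction under 3 scalings with a log2 difference of at least 0.5; dots are arrays, lines are means of 3 arrays, red is DRG and blue SC. The 16 genes to the left have all DRG dots above all SC dots, and Rab42, Rab12 and Rab31 at the right have the reverse.

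ER and Golgi transport, the longest list, held the most called members. Of 16 genes, 12 were called higher in DRG under the deposited scaling and 0 higher in SC. The counts were 8 and 1 after quantile normalization and 7 and 1 before the array factors. Under all 3 scalings 7 kept the call: Rab39, Rab2b, Rab6b, Rab6a, Rab39b, Rab33a and Rab1b. Beside this and the other step counts, 32.7% and 10.2% of all genes were called under the deposited scaling, and 17.8% and 10.1% under all 3. Rab39, a Rab of Golgi and endolysosomal membranes, read 468, 347 and 554 in DRG and 59.7, 65.5 and 56 in SC. All SC arrays were under the background level, and the difference was 2.60 ± 0.19 (SE), at least 4.30-fold, limma adjusted p 3.04e-06. Rab39b, its brain-expressed relative, mutated in inherited intellectual disability, read 589.9, 688 and 707 in DRG and 352, 374 and 387 in SC, a difference of 0.81 ± 0.09 (SE). It was clearly measured in both tissues, unlike Rab39.

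Rab2b, which acts in traffic between ER and Golgi, read 1135, 973 and 1014 in DRG, against 389, 355 and 374 in SC. The difference was 1.44 ± 0.08 (SE), 2.79-fold, limma adjusted p 8.22e-07, and all 5 of its probe sets were called higher in DRG. Rab6b, the neuronal isoform of the Golgi Rab6, read 6649, 8056 and 6961 in DRG and 3260.0, 3179 and 3211 in SC, a difference of 1.16 ± 0.08 (SE). The ubiquitous Rab6a followed at 5481, 5545 and 5639 against 3163, 3049 and 3232, a difference of 0.82 ± 0.06 (SE). Both genes had all DRG arrays far above all SC arrays, and under quantile normalization they kept differences of 0.59 and 0.25.

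Rab33a, found on Golgi-derived vesicles of growing axons, read 498, 443 and 458 in DRG and 263, 299 and 224 in SC, a difference of 0.80 ± 0.12 (SE). Rab1b, which drives the step from ER to Golgi, read 887, 849 and 819.6 against 506, 525 and 552, a difference of 0.67 ± 0.07 (SE). The arrays did not overlap in either gene. The other called genes of the step did not keep their call: Rab43 (0.86) lost it before the array factors, Rab1a (0.52), Rab18 (0.52), which sits on ER and lipid droplets, and Rab33b (0.25), an autophagy Rab, lost it under both other scalings, and Rab2a (0.38) was called higher in SC after quantile normalization, at -0.20. The Rab33b call was also lost without DRG replicate 1, SC replicate 1 or SC replicate 3, at 0.22, 0.23 and 0.24. Rab34, Rab36, Rab30 and Rab19 were not called under the deposited scaling, at 0.27, 0.08, 0.06 and -0.52, and Rab19 was under the level on every array.

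Early endosome Rabs went both ways. Of 9 genes, 4 were called higher in DRG and 1 in SC, while under all 3 scalings Rab4b and Rab4a remained higher in DRG and Rab31 higher in SC. Rab4 proteins return receptors from early endosomes quickly to the surface. Rab4b read 1471, 1594 and 1479.5 in DRG and 606, 668 and 647 in SC, a difference of 1.22 ± 0.07 (SE), limma adjusted p 7.72e-07. Rab4a read 1045, 996 and 1045 against 619, 504 and 475, a difference of 0.94 ± 0.10 (SE), limma adjusted p 4.32e-05. For both isoforms the lowest DRG array was well above the highest SC array.

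Rab31, also known as Rab22b, carries cargo between Golgi and endosomes. It read 348, 352 and 307 in DRG, against 875, 799 and 877 in SC. The groups were far apart, at -1.30 ± 0.09 (SE), 2.53-fold higher in SC, limma adjusted p 1.97e-06, and the difference was larger under the other scalings, at -1.68 and -1.66. Its second probe set gave -1.62. Rab31 was the member farthest toward SC under each of the 3 scalings. Rab5a (0.68), the Rab of early endosome fusion, and Rab21 (0.73), which moves integrins, were called higher in DRG under the deposited scaling and before the array factors but not after quantile normalization, at 0.09 and 0.20. Rab5b, Rab5c, Rab22a and Rab20 were not called under any scaling, and Rab20 was under the level on every array.

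Beside Rab31 stand the glial markers of the cord. The 7 oligodendrocyte markers summed to 667 to 789 in DRG and 11847 to 13194 in SC, with 3 and 7 of them above the level, and the 7 astrocyte markers summed to 1594 to 1651 in DRG and 19436 to 21419 in SC, with 5 and 7 above it. Of 9 microglia and macrophage markers 6 passed the test toward SC and 1 toward DRG, with summed signals of 2296 to 2423 in DRG and 3342 to 3609 in SC. The 6 became 3 without SC replicate 2. Their part in the differences of Rab31, Rab12 and Rab23 was not tested.

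Among 7 recycling endosome Rabs, 4 were called higher in DRG and 2 of them, Rab15 and Rab11a, under all 3 scalings. Rab15, a Rab of endocytic recycling found largely in neural tissue, read 3719, 3639.7 and 3364 in DRG and 882, 915 and 1064 in SC. Each DRG array was more than 3 times the highest SC array, with a difference of 1.89 ± 0.08 (SE), 3.76-fold, limma adjusted p 1.4e-07. Rab11a, the main Rab of the recycling endosome, read 3099, 3290.3 and 3338 in DRG and 1273, 1435 and 1288 in SC, a difference of 1.27 ± 0.07 (SE), 2.44-fold, limma adjusted p 6.16e-07. The second Rab11a probe set gave 0.68, and after quantile normalization 0.10, where it was not called. Rab11b, its close relative, had signals of 2541 to 2739 in DRG and 1937 to 2169.7 in SC. Its call depended on the scaling, being higher in DRG at 0.35 under the deposited scaling and higher in SC at -0.25 after quantile normalization. Rab14 (0.68), between Golgi and endosomes, lost its call after quantile normalization, at 0.07. Rab35 was called under no scaling, with overlapping arrays. Rab17 and Rab25, known from epithelial cells, were under the level on every array. Rab17 was called higher in SC before the array factors alone, at -0.76, and Rab25 under no scaling. None of 6 epithelial markers was called, and 3 of the 6 stood above the level on any array in each tissue.

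Late endosome and lysosome Rabs had 2 of 9 members called higher in DRG under the deposited scaling and none under all 3. Rab7, which governs late endosomes and lysosomes, read 4197, 4519 and 4287 in DRG, against 2738, 2555 and 2567 in SC. The arrays were apart and the difference was 0.72 ± 0.06 (SE), limma adjusted p 1.39e-05, falling to 0.14 after quantile normalization, where it was not called. Rab9, which returns receptors from late endosomes to the Golgi, stood at 0.49 and was not called under the other scalings, at 0.01 and 0.12. Rab24, an autophagy Rab, and Rab38, a melanosome Rab, were called higher in SC after quantile normalization, at -0.64 and -0.47, and before the array factors, at -0.55 and -0.47, but not under the deposited scaling, at -0.19 and -0.10. Rab7b, Rab9b, Rab29 and Rab32 were not called under any scaling. Rab42 was called higher in SC under all 3 scalings, at -0.97 ± 0.32 (SE) with a limma adjusted p of 0.0324, but its signals of 11.9, 48.1 and 22.5 in DRG and 56.5, 70.8 and 67.1 in SC were under the level on all 6 arrays, so no fold is given, and the call was lost when any 1 array other than DRG replicate 2 was left out.

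Rabs of surface delivery, junctions and the cilium had 4 of 9 members called higher in DRG and 2 higher in SC, with 1 and 2 under all 3 scalings. Rab40c, which recruits ubiquitin ligase subunits, read 616, 659 and 592 in DRG and 381, 409 and 371 in SC, a difference of 0.66 ± 0.08 (SE). Rab12, an endosomal Rab that the kinase Lrrk2 phosphorylates, read 208, 203 and 160.2 in DRG and 413, 441 and 384 in SC. Every SC array was above every DRG array, at -1.06 ± 0.13 (SE), 2.18-fold higher in SC, limma adjusted p 9.77e-05. The other Rab12 probe set was under the level on all 6 arrays and gave -0.01, and the call rests on the brighter set alone. Rab23, a negative regulator of Hedgehog signalling in the neural tube, read 288, 309.7 and 331 in DRG and 410.5, 395 and 377 in SC. Its groups did not overlap, but the difference of -0.34 ± 0.10 (SE) was small and its limma adjusted p of 0.0185 passed the threshold under the 3 scalings but not without DRG replicate 1, SC replicate 1 or SC replicate 2, at -0.29, -0.31 and -0.33. Its 3 probe sets gave -0.34, -0.73 and -0.04, and with sets that match several transcripts left out the call was lost.

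Calls of the remaining genes of this step depended on the scaling. Rab10 (0.52), of exocytosis, and Rab8b (0.36), of the cilium, were called higher in DRG under the deposited scaling alone. Rab28 was called higher in DRG at 0.23 and, after quantile normalization, higher in SC at -0.19. Under the deposited scaling the Rab28 call was lost without DRG replicate 1, SC replicate 1 or SC replicate 2, at 0.21, 0.22 and 0.23. Rab8a (0.10) and Rab40b (-0.62) were called higher in SC only before the array factors, and Rab40b was under the level on every array. Rab13, of tight junctions, was called under no scaling, with DRG arrays at 133 to 235 and SC arrays at 130.1 to 239. Rab44, in no step list, was under the level on every array and not called, at 0.79.

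In all, 45 Rab genes were above the level on all 6 arrays and 9 on none. The 9 were Rab17, Rab19, Rab20, Rab25, Rab26, Rab32, Rab40b, Rab42 and Rab44. Of the 30 genes called higher in DRG under the deposited scaling, 14 lost the call under another scaling, and after quantile normalization 3 of these (Rab2a, Rab11b and Rab28) passed the test toward SC. The 25 genes not called include 9 that passed it toward SC under another scaling (Rab3a, Rab3b, Rab8a, Rab17, Rab24, Rab26, Rab36, Rab38 and Rab40b), and 16 were called under none.

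Close relatives within the family differed in how far they were shifted. Of 18 listed pairs, 4 were left out because a gene of the pair (Rab27a, Rab39, Rab40b or Rab7b) was under the background level on all 3 arrays of a tissue, so that its shift is not measured. For the other 14, the tissue difference of a relative was subtracted from that of the other on each array scale, which nearly cancels an array factor, and 13 pairs kept their sign under all 3 scalings. With 3 arrays against 3, an exact two-sided permutation test cannot give less than 0.1, so no pair could pass 0.05. In 12 pairs the exact permutation test reached that smallest p of 0.1 (Benjamini-Hochberg adjusted 0.117 over the 14 pairs). Rab3d exceeded Rab3a by 3.19 ± 0.14 (SE), Rab3b by 3.96 ± 0.25 and Rab3c by 2.43 ± 0.12 on the log2 scale, so the 4 Rab3 isoforms were shifted by unlike amounts. Rab22a exceeded Rab31 by 1.44 ± 0.14.

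Smaller gaps separated the other pairs. Each gap is between the brightest probe sets of a pair, and other sets can give another order. Under the deposited scaling the second Rab11a set gave 0.68, and another Rab11b set, above the level on all 6 arrays, gave 0.72. The other Rab6b sets gave -0.09, 0.69 and 0.43, and the Rab6a sets 0.68 to 0.82. Rab2b exceeded Rab2a by 1.06 ± 0.06, Rab11a exceeded Rab11b by 0.92 ± 0.10, Rab3c exceeded Rab3a by 0.77 ± 0.12, Rab5a exceeded Rab5b by 0.75 ± 0.30 and Rab33a exceeded Rab33b by 0.55 ± 0.11. The gap was 0.34 ± 0.09 for Rab6b over Rab6a, 0.28 ± 0.16 for Rab4b over Rab4a and 0.25 ± 0.08 for Rab8b over Rab8a. After quantile normalization the gap of the Rab8 pair was 0.06 ± 0.08. In the remaining 2 pairs the arrays overlapped: Rab1b over Rab1a at 0.15 ± 0.12 and Rab9 over Rab9b at 0.19 ± 0.11 (exact permutation p 0.2 for each, adjusted 0.2). Rab9 over Rab9b was the pair that changed sign, to -0.04 after quantile normalization.

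Probe sets of a gene read different stretches or transcript forms, and they did not always give the same difference. Of the 132 Rab probe sets, 57 were called higher in DRG (27.0% of all probe sets were) and 9 higher in SC (11.1% of all), and 84 were above the level on all 6 arrays and 26 on none. The count of 9 fell to 5 without SC replicate 1 or without SC replicate 2. After quantile normalization 28 Rab sets were called higher in DRG (18.0% of all sets) and 25 in SC (16.6%), and before the array factors 32 (16%) and 23 (21.9%). Of the 38 genes with several probe sets, 7 had every set called higher in DRG: Rab2b, Rab3d, Rab4a, Rab6a, Rab7, Rab11a and Rab21. Rab31 had both sets called higher in SC, and 12 genes had none called. For Rab3c, Rab4a, Rab6a, Rab6b, Rab11a and Rab39b, only the brightest set was called higher in DRG after quantile normalization.

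Under the deposited scaling Rab40c and Rab43 had probe sets called in opposite directions. After quantile normalization sets of Rab2a, Rab6b, Rab11b and Rab14 were also called both ways. Called Rab6b sets gave 0.59 and -0.53 there, and 0.79 and -0.45 before the array factors. The values that follow are under the deposited scaling. For Rab40c the brightest set gave 0.66, and the other, with signals of 130, 89.7 and 127 in DRG and 174, 182 and 188 in SC, gave -0.60 ± 0.17 (SE, limma adjusted p 0.022). The brightest Rab43 set read 198, 297 and 299.8 in DRG and 104, 140.1 and 172 in SC, a difference of 0.86 ± 0.21 (SE). Another Rab43 set read 114, 87.4 and 86.2 in DRG against 149.8, 169.7 and 126 in SC and gave -0.56 ± 0.19 (SE, limma adjusted p 0.0457), and the last gave 0.07. The sets called higher in SC were dim, close to the background level in DRG. With all probe sets of a gene averaged, Rab40c fell to 0.03 and was not called.

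Rab37 also had sets of unlike direction, at 0.43, not called, and at -0.96 ± 0.23 (SE), called higher in SC. Of the 4 Rab27b sets 3 were called higher in DRG, at 1.89, 1.60 and 1.33, and the last gave -0.10. Of the 4 Rab27a sets only the brightest, at 1.43, was called, the others lay between 0.08 and 0.58 and under the level on all 6 arrays, and averaging the 4 brought Rab27a to 0.65. Rab6b spanned -0.09 to 1.16 over 4 sets that were all above the level on all 6 arrays, and averaging brought it to 0.55.

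**Figure D3:**
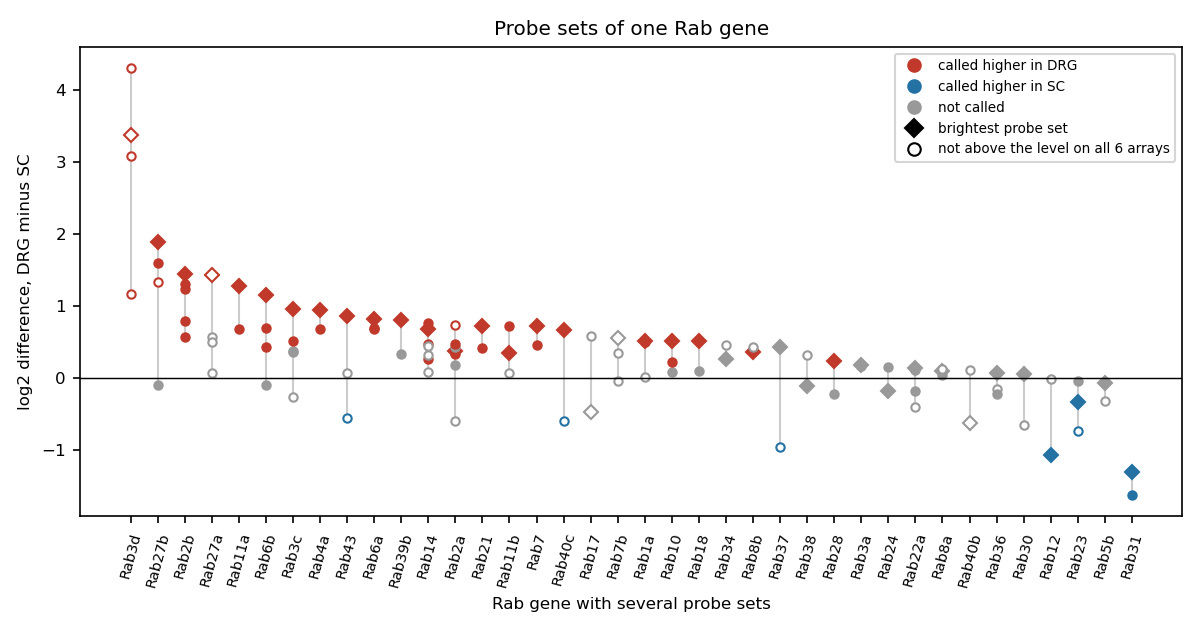
Log2 difference, DRG minus SC, of every probe set of the 38 Rab genes with several; red is called higher in DRG, blue called higher in SC, grey not called, diamonds the brightest set and open symbols sets not above the level on all 6 arrays. Many genes reach to both sides of 0, among them Rab40c, Rab43, Rab37, Rab2a and Rab27b, while the 2 sets of Rab31 sit together at -1.30 and -1.62.

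The proteins that run the Rab cycle were examined from 6 lists, with 132 of 142 listed genes measured. Under the deposited scaling 63 were called higher in DRG and 11 higher in SC, where 32.7% and 10.2% of all genes were. Their median was 0.29 beside 0.18 for all genes. That median moved to 0.01 with quantile normalization and to -0.05 before the array factors. Under all 3 scalings 30 were higher in DRG, 22.7% against 17.8% of all genes, and 11 higher in SC, 8.33% against 10.1%. Among all genes above the median signal those shares were 29.8% and 12.8%, and the 132 were not limited to such genes. The list counts below can be read beside the 32.7% and 10.2% of all genes under the deposited scaling. For all genes the shares were 21.4% and 16.8% after quantile normalization and 19.7% and 20.5% before the array factors.

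The list of GDP dissociation inhibitors, escort and prenylation factors, which attach the lipid tail of Rabs and carry them between membranes, had 6 of 7 members called higher in DRG and none higher in SC, with a median of 0.87 (0.40 and 0.51 under the other scalings). After quantile normalization 4 were called higher in DRG and 0 in SC, before the array factors 5 and 0, and 4 kept the call under all 3 scalings. Chml, a Rab escort protein, stood at 1.44, Gdi2 at 1.05 and Rabac1, a Rab acceptor of the Golgi, at 0.96. Gdi2 signals were 4855, 4804 and 4933 in DRG, against 2422, 2308 and 2273 in SC, with all DRG arrays above all SC arrays.

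Exchange factors had 12 of 33 called higher in DRG and 4 higher in SC, with a median of 0.09 (-0.09 and -0.20 under the other scalings). The counts turned to 4 and 7 after quantile normalization and to 3 and 8 before the array factors, and 3 and 4 held under all 3 scalings. Among the genes given here, Dennd1b, of a family that activates Rab35, stood at 1.33, while Dennd5b was higher in SC, at -1.17. Dennd5b read 209.7, 261 and 243 in DRG against 507, 583 and 570.2 in SC, with no overlap. With its probe sets averaged, Dennd1b lost its call, at 0.35.

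GTPase-activating proteins had 17 of 36 called higher in DRG and 1 higher in SC, with a median of 0.25 (-0.06 and -0.10 under the other scalings). The counts were 10 and 7 after quantile normalization and 9 and 10 before the array factors, and 9 and 1 held under all 3 scalings. Tbc1d19 stood at 1.46, Tbc1d7, also a subunit of the tuberous sclerosis complex, at 1.40, and Evi5, which acts on Rab11, at 1.29. Evi5 read 2401, 1892 and 2057 in DRG and 935, 859.7 and 767 in SC, so this regulator and its target Rab11a were both higher in DRG. Tbc1d24, mutated in inherited epilepsies, was the gene called higher in SC, at -0.63.

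Effectors of secretory Rabs had 4 of 14 called higher in DRG and 1 higher in SC, with a median of 0.12 (-0.12 and -0.18 under the other scalings). The counts were 3 and 3 after quantile normalization and 4 and 3 before the array factors. Sytl2, a tether that binds Rab27, read 1475, 1321 and 1363 in DRG and 549, 561 and 482 in SC, at 1.36, and Rims3, a scaffold of the presynaptic active zone, stood at 1.25. Myrip, which links Rab27a to myosin motors, went the other way, at 109.9, 122 and 97.2 in DRG and 290.2, 276 and 318 in SC, a difference of -1.31 ± 0.14 (SE, limma adjusted p 5.46e-05). Sytl2 and Myrip thus went opposite ways, while Rab27a and Rab27b were both higher in DRG. Of the 14 effectors, 9 were not called under the deposited scaling, other Rab27 partners among them.

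Effectors of endosomal Rabs had 14 of 20 called higher in DRG and 3 higher in SC, with a median of 0.66 (0.27 and 0.30 under the other scalings). The counts were 8 and 3 after quantile normalization and 8 and 4 before the array factors, and 7 and 3 held under all 3 scalings. Rufy2, an endosomal adaptor, stood at 2.60 with signals of 739, 859 and 833 in DRG and 116, 111 and 134 in SC. Wdr44, a Rab11 partner, stood at 1.76 and Snx4, a sorting nexin of the recycling route, at 1.50. Micall1, of recycling tubules, was higher in SC at -0.75. Effectors of Golgi and late endosome Rabs had 10 of 22 called higher in DRG and 2 higher in SC, with a median of 0.26 (0.10 and -0.08 under the other scalings). Under each of the other scalings the counts were 5 and 5. Mical1, an actin-oxidising enzyme that Rabs activate, stood at 2.83 with signals of 585, 344 and 400.2 in DRG and of 49.4, 43.9 and 47.9 in SC, under the level on each SC array. Lrrk2, the kinase of Rab8, Rab10 and Rab12, read 495, 467 and 482 in DRG and 186, 166 and 175 in SC, a difference of 1.38 ± 0.10 (SE, limma adjusted p 3.44e-06). Its substrate Rab12 was higher in SC, and Rab10 and Rab8b were called higher in DRG under the deposited scaling alone. Rilpl1, which binds Rabs phosphorylated by Lrrk2, was higher in SC at -0.67, and its call was lost when its probe sets were averaged, at -0.32, or when the sets shared among transcripts were left out, at -0.05. Lrrk1 was called higher in DRG at 0.90 under the deposited scaling, with signals under the level on all 6 arrays, and lost the call without DRG replicate 1, SC replicate 2 or SC replicate 3, at 0.69, 0.82 and 0.85.

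**Figure D4:**
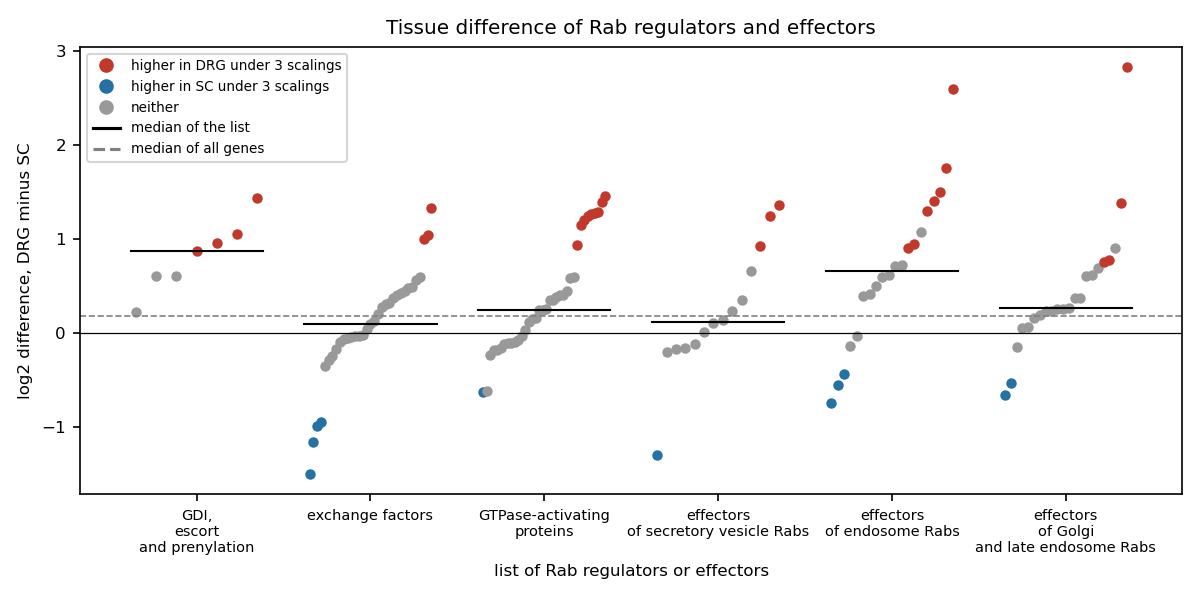
Log2 difference, DRG minus SC, under the deposited scaling for each of 132 measured regulators and effectors in 6 lists; red and blue points were called under all 3 scalings, black lines are list medians and the dashed line the median of all genes at 0.18. The list of GDP dissociation inhibitors, escort and prenylation factors has the highest median, 0.87, and the exchange factors the lowest, 0.09 (-0.09 and -0.20 under the other scalings), with 4 genes in blue.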

How the data were processed

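Each array measured 1 pool of RNA. The authors' deposited values are linear ratios, made from MAS5 signals per the submitters' processing notes (no version given). No source used here gives the further steps or the genome build. From the values, 91.8% of probe sets have a median of 1 over the 6 arrays, so each ratio was taken as a signal divided by an array factor and by the probe set's median. Signals were recovered from the 0.1 steps of MAS5 output for 45092 of 45101 probe sets. The 9 others include no Rab. In simulated probe sets 98.5% were recovered exactly, 1.47% up to a factor common to the 6 arrays and 0.0667% wrongly.

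Probe sets were named by the platform annotation: 34945 had 1 gene, 932 several (not used), 9160 none and 64 were controls. For a gene with several probe sets, the brightest was used (highest mean log2 over the arrays). Values of log2(signal + 16) were fitted by tissue in R 4.3.3, using limma 3.58.1 (lmFit and eBayes with an intensity trend, two-sided, threshold 0.05 on the adjusted p), tested on simulated data. The pseudocount understates changes of dim genes. With 3 arrays a tissue, their number limits the precision. Values on all 6 arrays are given for Rab genes called alike under 3 scalings at an absolute log2 difference of at least 0.5. They are also given for Rab genes whose probe sets were called both ways under the deposited scaling. From each partner list come the 3 called genes with the largest difference and the largest the other way, and from a marker list the largest called. A gene that this rule names among the exchange factors is not reported here. Array values of Rab3a, Rab7 and Rab23 were added after they were seen. Members and lists were chosen with earlier results of these data known. Alternatives were quantile normalization, signals before the array factors, pseudocounts of 1 and 64, the log2 ratio itself, genes above the median signal, no trend, a replicate block, averaging over probe sets, leaving out sets whose IDs mark a match to several transcripts, and leaving out each array.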

Additional observations from a re-analysis of the deposited data

How the results depend on the processing

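The count of Rab genes higher in DRG was 17 after quantile normalization, and that higher in SC was 11 after it, 12 before the array factors and 2 without probe sets shared among transcripts. Leaving out 1 array gave 28 to 32 and 2 to 5. Rab probe sets higher in DRG numbered 28 and 32 under the other scalings and those higher in SC 25 and 23, with 52 to 58 and 5 to 8 when 1 array was left out. Regulators and effectors numbered 34 and 34 higher in DRG and 25 and 30 higher in SC, with 55 to 60 and 11 to 12. The count higher in DRG under 3 scalings was 10 with probe sets averaged and 14 to 17 without 1 array, and the count higher in SC was 2 without shared probe sets and 2 to 5 without 1 array. This count under each other setting was added after the data were seen, and was not run on the log2 ratio. The median Rab difference was 0.0067 after quantile normalization, 0.0095 before the array factors, 0.34 with a pseudocount of 64, 0.49 above the median signal, 0.28 with probe sets averaged, 0.35 without shared sets and 0.36 to 0.42 without 1 array. With the replicate number as a block, 30 and 4 Rab genes were called, the median was 0.38 and no call of a Rab gene changed under the deposited scaling. With the block 17 Rab genes were higher in DRG under 3 scalings, and 56 and 7 Rab probe sets were called. Deviations of same-numbered arrays correlated at 0.00837, -0.0321 and -0.00138, and those of other DRG and SC arrays at -0.0217 to 0.0226. Such values cannot show whether same-numbered pools shared mice, because correlations near 0 could arise either way.

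Changes of sign are listed only for Rab genes called under the deposited scaling, the other scaling or both. Further genes called in neither fit also changed sign. The listed differences after quantile normalization were Rab1a -0.032, Rab2a -0.20, Rab3a -0.39, Rab8b -0.11, Rab10 -0.086, Rab11b -0.25, Rab18 -0.075, Rab28 -0.19 and Rab33b -0.16. Before the array factors they were Rab8a -0.25, Rab8b -0.0076, Rab11b -0.018, Rab28 -0.13, Rab33b -0.11 and Rab36 -0.28. The scaling alone differs in these fits, and which scaling is nearer to the RNA in the tissues was not tested. Of the genes called under all 3 scalings, the call under the deposited scaling was lost in 1 other setting for Rab12 and Rab40c, in 4 for Rab23 and in 5 for Rab42.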
